A study of Mus musculus with 15 samples.

Results

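The enzymes that draw on arginine, make nitric oxide and polyamines, and turn a citrate cycle intermediate into itaconate were followed in mouse bone marrow-derived macrophages (BMDMs). The members were picked by gene symbol: *Nos2*, *Gch1*, *Ass1*, *Asl*, *Arg1*, *Arg2*, *Odc1*, *Sms*, *Sat1* and *Acod1*, the last of which was formerly called *Irg1*. All 10 were present among the 20089 genes analysed, and all 10 were among the 11743 tested genes, those that averaged 0.1 FPKM or more (fragments scaled to transcript length and to sequencing depth).

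BMDMs were grown from the marrow of wild-type C57BL/6 mice in M-CSF, the growth factor that keeps macrophages alive, which every group received. The 15 samples fell into 5 groups of 3: control cells in M-CSF alone, cells given RANKL (receptor activator of NF-κB ligand, the cytokine that turns macrophages into bone-resorbing osteoclasts) for 4 h or 72 h, and cells given LPS (lipopolysaccharide of bacterial cell walls) for 4 h or 72 h. The methods give 100 ng/mL for both stimuli and 50 ng/mL for M-CSF, and the labels write 72 h as 3 days. No group was kept in M-CSF alone for 72 h, so at that time the stimulus and the time in culture cannot be told apart. The labels do not say whether replicates came from separate mice, so p-values measure the spread between these samples only.

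Arginine is the shared substrate of inducible nitric oxide synthase (*Nos2*), which makes nitric oxide and citrulline, and of the arginases (*Arg1* in the cytosol, *Arg2* in mitochondria), which make urea and ornithine. Argininosuccinate synthase (*Ass1*) and lyase (*Asl*) turn citrulline back into arginine, GTP cyclohydrolase (*Gch1*) starts the synthesis of the *Nos2* cofactor tetrahydrobiopterin, and ornithine decarboxylase (*Odc1*), spermine synthase (*Sms*) and spermidine/spermine acetyltransferase (*Sat1*) make and remove polyamines. In macrophages, *Nos2* is a textbook marker of the inflammatory state and *Arg1* of the alternatively activated state, while *Acod1* makes itaconate from cis-aconitate in mitochondria during inflammatory activation.

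The samples held 18306184 to 20330207 fragments on listed genes, and the members' values rested on 21 fragments (*Arg2* in a control sample) to 119596 fragments (*Acod1* after LPS 4 h). All 10 macrophage markers, among them *Csf1r* and *Adgre1*, were above 1 FPKM in every group mean. Markers of the stimuli moved with the labels in part: the osteoclast protease *Ctsk* rose 41.6-fold after RANKL 72 h, and the LPS-induced cytokine *Il6* rose 429-fold after LPS 4 h. By the rule given below, all osteoclast markers listed but *Atp6v0d2* were called higher after RANKL 72 h, and none was called after RANKL 4 h. *Ctsk* also rose 3.21-fold after LPS 72 h. Markers of other cells were also present. The summed level of 12 neutrophil granule genes ran from 8024 to 24543 FPKM in control, 7609 to 21959 in RANKL 4 h, 6746 to 21472 in LPS 4 h, 1873 to 7520 in RANKL 72 h and 323 to 2062 in LPS 72 h, and none of the 12 was at 0 throughout a group. The summed level of 18 stromal genes ran from 206 to 425 FPKM in control, 239 to 435 in RANKL 4 h, 215 to 403 in LPS 4 h, 544 to 2432 in RANKL 72 h and 165 to 665 in LPS 72 h. Such sums follow the most abundant genes of a list and do not measure the share of a cell type. *Mmp8* of the neutrophil list went from 76.0, 37.5 and 159 FPKM in control to 164, 172 and 241 in LPS 72 h. The other genes of that list had lower means in LPS 72 h than in control. Single stromal genes can likewise differ from their sum. Replicate 3 of LPS 72 h stood apart from the other samples of its group. Its recovered fragment counts differed, by the median squared difference over genes, from those of replicates 1 and 2 by 61.3 and 41.6 times the sampling noise, against 7.52 to 25.4 times for the other pairs within groups. For the members called in LPS 72 h, and for counts of calls, values without it are also given.

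A change was called at a fold above 1.5 or below 0.66 with a Benjamini-Hochberg adjusted p under 0.05 over all genes tested (limma on log2(FPKM + 0.1), n = 3 per group). After RANKL 4 h, 0 of 10 members were called, where 0.119% of all genes were. 1 member, *Odc1*, had an unadjusted p under 0.05 in that comparison, and limma voom on fragment counts also called 0. After RANKL 72 h, 5 of 10 were called, 3 higher and 2 lower, against 24.2% of all genes (16.6% higher, 7.54% lower). After LPS 4 h, 5 of 10 were called and all 5 were higher, against 48.1% of all genes, of which most were lower (8.43% higher, 39.7% lower). After LPS 72 h, 8 of 10 were called, 5 higher and 3 lower, against 27.4% of all genes (13% higher, 14.4% lower). The median log2 change of the 10 members after LPS 4 h was 1.05, while that of all genes tested was -0.52. The corresponding medians were 0.10 and 0.16 after RANKL 72 h and 0.64 and 0.08 after LPS 72 h. Since the median gene fell after LPS 4 h, values after shifting every sample to the same median gene (centring) are given for members whose call they changed.

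**Figure D1:**
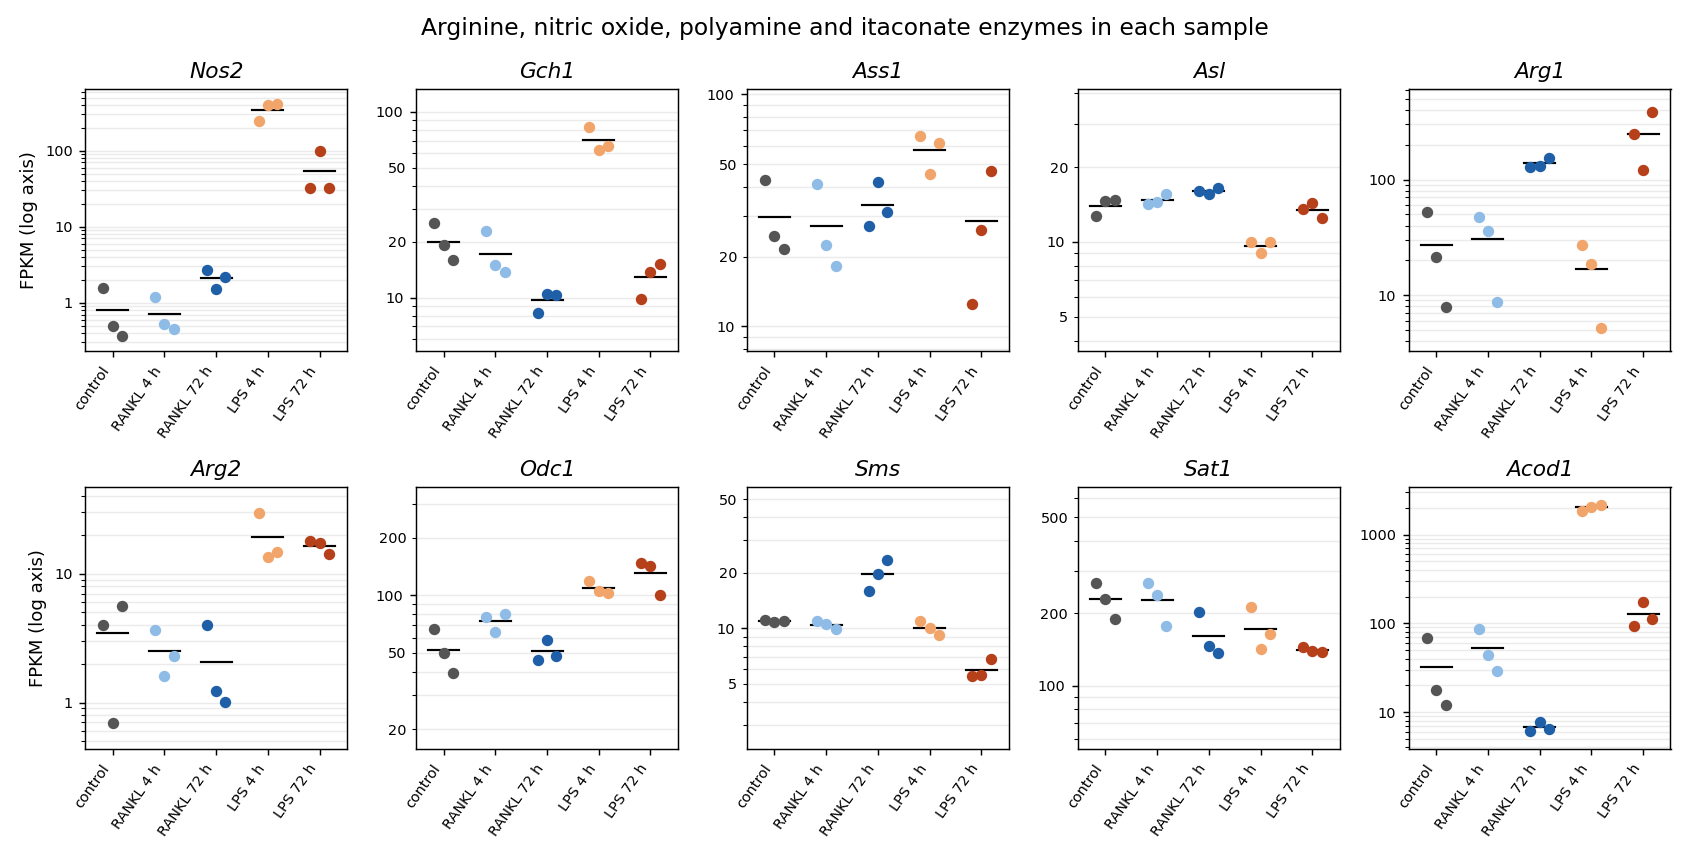
FPKM of the 10 enzymes in each of the 15 samples, on a log axis whose range differs between panels; points are samples in the order of their replicate numbers and black lines are group means. *Nos2*, *Gch1* and *Acod1* were highest in the 3 LPS 4 h samples, *Arg1* was high in both 72 h groups, and *Sms* was high in RANKL 72 h and low in LPS 72 h.

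*Nos2* (chromosome 11, 78920787 to 78960254, plus strand, 27 exons, GRCm38 with GENCODE M21, as for all positions given) had the largest response of the 10. In control cells its level was 1.58, 0.490 and 0.367 FPKM, which rested on 33 to 153 fragments. After RANKL 4 h it was 1.18, 0.530 and 0.450 FPKM, and after LPS 4 h it was 242, 393 and 407 FPKM, so every LPS 4 h sample was above every other sample of the study. After LPS 72 h it had come down to 31.9, 99.2 and 31.9 FPKM, still above all control and RANKL samples. The rise over control was 437-fold at 4 h (log2 8.77 ± 0.51, SE, adjusted p = 2.26e-08) and 60.4-fold at 72 h (log2 5.92 ± 0.51, adjusted p = 5.91e-06), and the fall between LPS 4 h and LPS 72 h was 7.24-fold (adjusted p = 0.000236). Without replicate 3 of LPS 72 h the log2 rise at 72 h was 6.19. By mean level *Nos2* ranked 9562 of 20089 genes in control, 202 in LPS 4 h and 1221 in LPS 72 h.

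RANKL gave *Nos2* a far smaller change. Its level after RANKL 72 h was 2.68, 1.54 and 2.20 FPKM, which overlapped control through replicate 1 of control, and the fitted rise was 2.83-fold (log2 1.5 ± 0.51, adjusted p = 0.0397). That call did not hold with 1 FPKM as the pseudocount (log2 0.84, adjusted p = 0.112), with samples centred on the median gene (log2 1.28, adjusted p = 0.0837), without the filter on low values (adjusted p = 0.0568), with only the groups compared (0.0572) or on fragment counts with voom (0.0995). It was also lost in the absence of control replicate 2 (log2 1.30, adjusted p = 0.118), control replicate 3 (1.14, 0.138), RANKL 72 h replicate 1 (1.33, 0.116) or RANKL 72 h replicate 3 (1.46, 0.0925). Against RANKL 4 h the rise was 2.87-fold (adjusted p = 0.0389), and it too was lost without RANKL 4 h replicate 2 or 3 or RANKL 72 h replicate 1 or 3 (log2 1.28 to 1.48), after centring (log2 1.30, adjusted p = 0.0807), with 1 FPKM as the pseudocount (0.88, 0.1002), without the filter (adjusted p = 0.0561) and with voom (0.101). At matched times *Nos2* was 443-fold lower in RANKL than in LPS at 4 h (adjusted p = 2.29e-08) and 21.3-fold lower at 72 h (adjusted p = 1.42e-05).

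None of the other tested genes around nitric oxide was called higher with LPS at either time. The neuronal and endothelial synthases *Nos1* and *Nos3* had means over all samples below the 0.1 FPKM minimum and were not tested. Of 7 tested genes for partners, regulators and receptors of nitric oxide synthases, 0 were higher and 4 lower after LPS 4 h, and 2 were higher and 2 lower after RANKL 72 h. The shares called were 57.1% in both, against 48.1% and 24.2% of all genes, and the median of the 7 was -0.83 after LPS 4 h and 0.43 after RANKL 72 h on the log2 scale, against -0.52 and 0.16. *Ddah1* and *Ddah2*, which remove the methylated arginines that inhibit nitric oxide synthases, both rose after RANKL 72 h: *Ddah1* from 1.08, 1.41 and 0.605 to 5.24, 3.05 and 1.58 FPKM (log2 1.5, adjusted p = 0.024), and *Ddah2* from 1.64, 3.34 and 1.86 to 3.87, 4.48 and 3.40 FPKM (log2 0.82, adjusted p = 0.0438). With samples centred on the median gene neither rise was called. In RANKL 72 h *Ddah1* fell in the replicate order of the stromal sums (2432, 1114 and 544 FPKM), and *Ddah2* did not. The part of stromal cells in these rises was not tested. *Nosip* and *Nostrin*, which bind endothelial nitric oxide synthase, were lower after LPS 4 h (log2 -0.83 and -0.86), calls that were absent after centring. *Gucy1a3* and *Gucy1b3*, the subunits of the guanylate cyclase that senses nitric oxide, are named after their values were seen: *Gucy1b3* went from 2.68, 0.996 and 0.969 FPKM in control to 0.330, 0.195 and 0.137 after RANKL 72 h and 0.202, 0.254 and 0.431 after LPS 72 h, and both subunits were called lower in both 72 h groups.

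*Gch1* (chromosome 14, 47153895 to 47189413, minus strand) sets the rate of tetrahydrobiopterin synthesis. Its level was 25.1, 19.1 and 15.8 FPKM in control, 23.0, 14.9 and 13.6 after RANKL 4 h, and 83.2, 62.1 and 65.5 after LPS 4 h. No LPS 4 h sample came near any other group, and the rise was 3.53-fold (log2 1.82 ± 0.23, adjusted p = 1.66e-05). At 72 h the direction was the opposite. With RANKL the level was 8.21, 10.4 and 10.3 FPKM, below every control sample and 2.04-fold lower (log2 -1.03 ± 0.23, adjusted p = 0.00424), and with LPS it was 9.82, 13.7 and 15.2 FPKM, also below control and 1.54-fold lower (log2 -0.63 ± 0.23, adjusted p = 0.0441). The LPS 72 h call was close to both thresholds and was lost without control replicate 1 (log2 -0.45), control replicate 2 (-0.65), LPS 72 h replicate 1 (-0.44) or LPS 72 h replicate 2 (-0.68), and under 6 other settings, among them centring (-0.71, adjusted p = 0.0567), while without LPS 72 h replicate 3 it held (-0.76, adjusted p = 0.0258). From LPS 4 h to LPS 72 h *Gch1* fell 5.45-fold (adjusted p = 8.68e-07), and at 4 h it was 4.15-fold lower in RANKL than in LPS (adjusted p = 5.57e-06). From RANKL 4 h to RANKL 72 h it fell 1.74-fold (adjusted p = 0.0178), a call lost without RANKL 4 h replicate 1 (log2 -0.57) or RANKL 72 h replicate 1 (-0.69). The annotation has 2 processed pseudogenes that overlap *Gch1*, *Gm18811* on the same strand and *Gm49134* on the opposite strand.

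*Gch1* and *Acod1* both rose after LPS 4 h, lie on the same chromosome and had entries in the RefSeq promoter table (GRCm38.p6). That table matched 6 of the 10 members by symbol and had no entry for *Nos2*, *Arg1*, *Arg2* and *Asl*. *Gch1* and *Acod1* are shown. *Odc1*, which was also called higher with LPS, had an entry too. Its stretch is not shown and held no match to any of the motifs searched. Positions count from the RefSeq start, which for *Acod1* lies downstream of the gene start at 103046977 in GENCODE M21, so the end of the *Acod1* stretch, with its TATAAA, is inside the GENCODE gene. The 250 bases before each RefSeq start are shown 5′ to 3′ on the gene's strand, with matches to a small set of motifs in capitals.
Gch1, chr14:47189414-47189663, minus strand: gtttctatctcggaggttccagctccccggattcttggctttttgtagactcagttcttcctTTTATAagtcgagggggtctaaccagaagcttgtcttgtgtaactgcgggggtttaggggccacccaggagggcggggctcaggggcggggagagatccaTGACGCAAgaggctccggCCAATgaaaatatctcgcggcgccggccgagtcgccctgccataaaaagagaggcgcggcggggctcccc
Acod1, chr14:103046762-103047011, plus strand: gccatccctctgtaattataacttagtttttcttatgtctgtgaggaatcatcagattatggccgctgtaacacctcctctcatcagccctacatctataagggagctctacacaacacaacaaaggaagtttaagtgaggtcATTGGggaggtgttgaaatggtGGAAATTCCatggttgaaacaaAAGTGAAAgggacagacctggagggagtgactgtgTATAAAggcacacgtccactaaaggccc
The motifs were chosen after the sequences were seen, both strands were searched, and no motif match overlaps another in these stretches. In *Acod1* the capitals mark CCAAT on the opposite strand (-107 to -103 from the start), GGAANTTCC of the NF-κB type (-85 to -77), AANNGAAA of the IRF type (-63 to -56) and TATAAA (-28 to -23). In *Gch1* they mark TATAAA on the opposite strand (-188 to -183), TGACGCAA of the CRE and C/EBP type (-88 to -81) and CCAAT (-70 to -66). Among the 32851 promoter entries of the same length, GGAANTTCC was found in 0.813%, TGACGCAA in 0.438%, AANNGAAA in 21.3%, CCAAT in 33.8% and TATAAA in 12.4%. These are letter matches in the reference and not measured binding.

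No other gene of tetrahydrobiopterin synthesis and recycling was called higher after LPS 4 h. *Pts*, the enzyme after *Gch1*, went from 20, 16.0 and 17.8 FPKM in control to 9.60, 10.1 and 6.96 after LPS 4 h (log2 -1.02, adjusted p = 0.000222). *Spr*, the last enzyme of the synthesis, went from 14.5, 20.9 and 18.0 to 7.0, 9.24 and 7.23 FPKM (log2 -1.17, adjusted p = 0.000558). The *Spr* call held after centring on the median gene (log2 -0.61) and the *Pts* call did not. Of the 6 tested genes in the list, 3 were lower after LPS 4 h and 0 higher, and 3 were higher after RANKL 72 h and 0 lower. After LPS 4 h the list thus had 50% called, close to the 48.1% of all genes, with a median log2 change of -0.72 against -0.52. After RANKL 72 h, 24.2% of all genes were called (16.6% higher, 7.54% lower). Among those that rose with RANKL were *Spr* (log2 0.63) and the recycling enzyme *Qdpr* (log2 0.68), and neither was called after centring. *Gchfr*, the feedback regulator of *Gch1*, was at most 0.592 FPKM in any sample and was not called in any comparison.

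*Ass1* and *Asl* form the citrulline-to-arginine cycle and did not move alike. *Ass1* (chromosome 2, 31470207 to 31520672, plus strand) was 42.9, 24.4 and 21.6 FPKM in control and 66.0, 45.2 and 61.8 after LPS 4 h, above control in every sample. The difference was 2.01-fold (log2 1.0 ± 0.42) and missed the threshold by a small margin (adjusted p = 0.0506). It was called with samples centred on the median gene (log2 1.57, adjusted p = 0.0169), on fragment counts with voom (adjusted p = 0.0458) and without control replicate 1 (log2 1.30, adjusted p = 0.0234). After LPS 72 h *Ass1* was 12.5, 26.1 and 46.6 FPKM, so replicate 3 of that group, the sample that stood apart, was the highest. The fall from LPS 4 h to LPS 72 h was 2.29-fold (adjusted p = 0.0206), and was 1.65 on the log2 scale (adjusted p = 0.00236) without that sample. It was lost without LPS 4 h replicate 1 (log2 -1.09) or 3 (-1.14) or LPS 72 h replicate 1 (-0.70). *Ass1* in RANKL samples was 41.0, 22.4 and 18.1 FPKM at 4 h and 27.0, 41.9 and 31.0 FPKM at 72 h, which overlapped control. At 4 h *Ass1* was 2.22-fold lower in RANKL than in LPS (adjusted p = 0.0274), a call lost without RANKL 4 h replicate 2 (log2 -1.06) or 3 (-0.91) or LPS 4 h replicate 1 (-1.04) or 3 (-1.09).

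*Asl* (chromosome 5, 130011258 to 130029247, minus strand) was the steadiest member, with coefficients of variation of 2.87% to 7.91% within groups. It was 12.7, 14.6 and 14.7 FPKM in control, 9.98, 9.06 and 10 after LPS 4 h and 13.6, 14.3 and 12.5 after LPS 72 h. The LPS 4 h samples lay below all others, but the fall of 1.44-fold (adjusted p = 0.000558) was under the fold threshold, and relative to the median gene it was absent (log2 0.04). After RANKL 72 h *Asl* was 16.1, 15.6 and 16.6 FPKM, above every control sample and not called (log2 0.20, adjusted p = 0.15; -0.02 after centring). It was called higher in RANKL 4 h than in LPS 4 h (1.52-fold, adjusted p = 0.000199), and that call was lost after centring (log2 0.03) and without RANKL 4 h replicate 3 (0.56) or LPS 4 h replicate 2 (0.55). The ratio of *Ass1* to *Asl* in FPKM was 6.62, 4.99 and 6.18 in LPS 4 h and at most 3.73 in any other sample.

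Among the other genes of these pathways, an arginine carrier of the plasma membrane changed most. *Slc7a2*, the inducible cationic amino acid carrier, was 1.82, 1.01 and 1.01 FPKM in control, 54.7, 57.5 and 67.2 after LPS 4 h and 7.86, 10.7 and 3.62 after LPS 72 h. It rose 44.8-fold at 4 h (log2 5.49, adjusted p = 2.01e-07) and 5.14-fold at 72 h (adjusted p = 0.000674), and like *Nos2* it was higher at 4 h than at 72 h. With RANKL it was 2.98, 1.97 and 2.46 FPKM at 4 h and 1.73, 0.910 and 0.490 at 72 h, with no call against control. *Slc7a1*, the constitutive carrier, was not called against control in any group. *Slc3a2*, the heavy chain that pairs with *Slc7a7* and *Slc7a6*, went from 127, 89.7 and 79.7 FPKM to 39.5, 37.9 and 34.9 after RANKL 72 h (log2 -1.37, adjusted p = 0.00268) and to 243, 236 and 108 after LPS 72 h (log2 0.92, adjusted p = 0.0200). *Slc7a7* fell after RANKL 72 h (log2 -0.95, adjusted p = 0.00262). Of the 7 tested genes of arginine supply, 1 was higher and 3 lower after LPS 4 h, 1 higher and 2 lower after RANKL 72 h, and 4 higher and 0 lower after LPS 72 h. The shares called were 57.1%, 42.9% and 57.1%, against 48.1%, 24.2% and 27.4% of all genes. Without LPS 72 h replicate 3 the log2 rises at 72 h were 2.80 for *Slc7a2* and 1.31 for *Slc3a2*. The mitochondrial carrier *Slc25a15*, which brings ornithine in for the urea cycle, fell after LPS 4 h (log2 -1.37, adjusted p = 7.69e-06, and -0.81 after centring). *Cps1*, the first enzyme of the urea cycle, was listed at 0 in all 15 samples.

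*Arg1* (chromosome 10, 24915221 to 24927484, minus strand) was high at 72 h under both stimuli. It was 52.6, 21.5 and 7.85 FPKM in control, 47.6, 35.6 and 8.73 after RANKL 4 h and 26.9, 18.6 and 5.20 after LPS 4 h. In these 3 groups the order of the samples was the same, with replicate 1 highest and replicate 3 lowest, and the groups overlapped. The LPS 4 h difference of -0.59 (log2, 95% confidence interval -2.20 to 1.03) was not called (adjusted p = 0.524, and 0.438 with the replicate block), though each LPS 4 h sample was below the control sample of the same number. After RANKL 72 h *Arg1* was 129, 132 and 154 FPKM and after LPS 72 h it was 246, 120 and 382 FPKM, above every sample of the other groups. The rise over control was 6.62-fold with RANKL (log2 2.73 ± 0.75, adjusted p = 0.0149) and 10.8-fold with LPS (log2 3.43 ± 0.75, adjusted p = 0.00334). These sizes depended on single control samples. Without control replicate 1 the log2 changes were 3.40 and 4.10, and without control replicate 3 they were 2.03 (adjusted p = 0.0629, not called) and 2.73 (adjusted p = 0.0171). Without LPS 72 h replicate 3 the LPS value was 3.04 (adjusted p = 0.0119). The 72 h groups did not differ from each other beyond their spread (log2 -0.70 for RANKL against LPS, interval -2.32 to 0.92).

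Between LPS 4 h and LPS 72 h *Arg1* rose 16.2-fold (log2 4.01 ± 0.75, adjusted p = 0.00034), and without LPS 4 h replicate 3 the log2 value was 3.32 (adjusted p = 0.00211). Between RANKL 4 h and RANKL 72 h it rose 5.59-fold (adjusted p = 0.0247), a call lost without RANKL 4 h replicate 3 (log2 1.74) or any 1 of the RANKL 72 h samples (2.40 to 2.53). Markers of other cells moved between these groups as well. In RANKL 72 h the stromal sum was lowest (544 FPKM) in replicate 3, which had the highest *Arg1*, and highest (2432 FPKM) in replicate 1, which had the lowest. In LPS 72 h the stromal sums were 165, 202 and 665 FPKM, and replicate 3 had both the highest sum and the highest *Arg1*. The neutrophil sum was lower in both 72 h groups than in any control sample, and the part of either in the *Arg1* result was not tested. In bulk RNA, fewer cells of a type and less RNA per cell cannot be told apart.

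*Nos2* and *Arg1* changed places only in the 3 LPS 4 h samples. There *Nos2* exceeded *Arg1* 8.99-fold, 21.1-fold and 78.2-fold in FPKM, while *Arg1* exceeded *Nos2* in all 12 other samples. The excess of *Arg1* was 21.4-fold to 44.0-fold in control, 19.4-fold to 67.2-fold in RANKL 4 h and 48.0-fold to 85.9-fold in RANKL 72 h. In LPS 72 h it was 7.72-fold, 1.21-fold and 12-fold, with both genes above every control sample. Within that group replicate 2 had the highest *Nos2* (99.2 FPKM) and the lowest *Arg1* (120 FPKM).

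**Figure D2:**
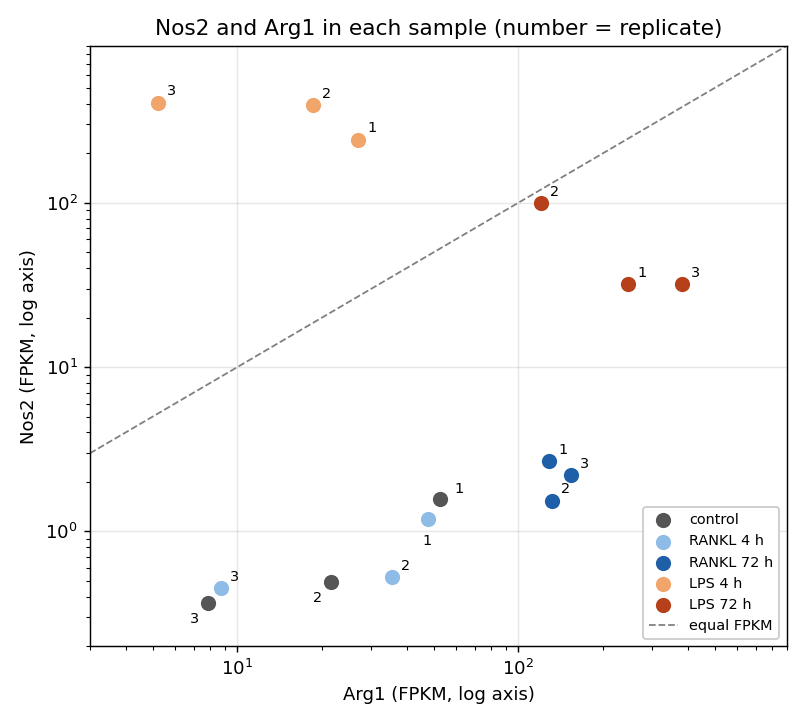
*Nos2* against *Arg1* in each of the 15 samples, both in FPKM on log axes, with colours for groups, numbers for replicates and a dashed line at equal levels. The 3 LPS 4 h samples lie above the line, LPS 72 h replicate 2 lies just below it at a ratio of 1.21, and the control and RANKL samples lie far below it.

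*Arg2* (chromosome 12, 79130777 to 79156301, plus strand) rose with LPS at both times and not with RANKL. It was 4.01, 0.695 and 5.61 FPKM in control, 29.6, 13.4 and 14.6 after LPS 4 h and 17.9, 17.2 and 14.3 after LPS 72 h, with no overlap. The rise was 6.82-fold at 4 h (log2 2.77 ± 0.64, adjusted p = 0.00205) and 6.22-fold at 72 h (log2 2.64 ± 0.64, adjusted p = 0.00591), and without control replicate 2 the log2 values were 1.90 (adjusted p = 0.00675) and 1.77 (adjusted p = 0.0199). Without LPS 72 h replicate 3 the 72 h value was 2.73. Between LPS 4 h and LPS 72 h *Arg2* was not called (log2 -0.13, 95% confidence interval -1.5 to 1.23). With RANKL it was 3.63, 1.61 and 2.30 FPKM at 4 h and 3.97, 1.24 and 1.01 at 72 h, which overlapped control. It was lower in RANKL than in LPS by 7.28-fold at 4 h (adjusted p = 0.00158) and by 9.04-fold at 72 h (adjusted p = 0.00115). The control sample with the least *Arg2*, replicate 2, also had the lowest neutrophil sum (8024 against 24543 and 21566 FPKM). The neutrophil sums of LPS 4 h were 21472, 6746 and 13067 FPKM, and those of LPS 72 h were 351, 323 and 2062 FPKM. The part of neutrophils in the *Arg2* result was not tested. In the annotation *Vti1b* and the antisense gene *Gm48780* overlap *Arg2* on the opposite strand. Without a stated strand setting, their reads in the overlap cannot be told apart from those of *Arg2*. *Arg1* made up 87.5% to 96.4% of the summed arginase FPKM in LPS 72 h, 97.0% to 99.3% in RANKL 72 h and 58.3% to 96.9% in control, and 26.2% to 58.1% in LPS 4 h.

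Genes that take arginine or ornithine elsewhere were called in different directions under the stimuli at 72 h. Of 8 tested, 3 were higher and 0 lower after RANKL 72 h, 1 was higher and 4 lower after LPS 72 h, and 6 were higher and 1 lower in RANKL 72 h than in LPS 72 h. The shares called were 37.5%, 62.5% and 87.5%, against 24.2%, 27.4% and 36.1% of all genes. *Gatm*, which uses arginine for creatine, was 42.0, 42.3 and 25.6 FPKM in control and 8.43, 10.2 and 9.60 after LPS 72 h (log2 -1.92, adjusted p = 4.12e-05). *Aldh18a1*, which makes the precursor of proline and ornithine from glutamate, was 7.76, 13.4 and 9.45 FPKM in control and 2.70, 3.21 and 4.54 after LPS 72 h (log2 -1.52, adjusted p = 0.000638). Without LPS 72 h replicate 3 these were -1.93 and -1.72. With RANKL for 72 h the log2 differences were -0.08 and 0.57, and neither was called. *Azin2*, an antizyme inhibitor, rose in both 72 h groups (log2 1.78 with RANKL, 1.49 with LPS). *Pycrl*, a last step of proline synthesis, fell after LPS 4 h (log2 -1.32, adjusted p = 4.89e-06, and -0.75 after centring).

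*Odc1* (chromosome 12, 17544794 to 17551505, plus strand), the first and rate-limiting enzyme of polyamine synthesis, rose with LPS and stayed high. It was 66.3, 49.9 and 39.3 FPKM in control, 119, 106 and 103 after LPS 4 h and 148, 142 and 101 after LPS 72 h, with every LPS sample above every other sample. The rise was 2.15-fold at 4 h (log2 1.10 ± 0.19, adjusted p = 0.000229) and 2.53-fold at 72 h (log2 1.34 ± 0.19, adjusted p = 0.000147), or 1.51 on the log2 scale at 72 h without replicate 3. With RANKL it was 77.2, 64.0 and 80.3 FPKM at 4 h, higher than the control sample of the same number in 3 of 3, with a log2 difference of 0.54 (interval 0.13 to 0.94) that missed the threshold (adjusted p = 0.667). After RANKL 72 h it was 45.7, 58.7 and 48.4 FPKM, which did not differ from control beyond the spread (log2 -0.0017, interval -0.41 to 0.40), and 2.53-fold lower than in LPS 72 h (adjusted p = 7.41e-05). Its 72 h level was lower than its RANKL 4 h level by a log2 difference of -0.54 (adjusted p = 0.0462), under the fold threshold, and was called after centring (-0.76) and without RANKL 4 h replicate 2 or RANKL 72 h replicate 2 (both -0.64). The 1.48-fold lower level in RANKL 4 h than in LPS 4 h passed on p (adjusted p = 0.0181) but was under the fold threshold. That difference was called after centring (log2 -1.14) and without RANKL 4 h replicate 1 (-0.60) or 3 (-0.63) or LPS 4 h replicate 3 (-0.61). The annotation lists the small nucleolar RNA gene *Gm22748* as overlapping *Odc1* on the same strand.

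*Sms* (X chromosome, 157443855 to 157492287, minus strand), which turns spermidine into spermine, moved in opposite directions at 72 h. It was 11.0, 10.7 and 11.0 FPKM in control, and lay between 9.22 and 11.0 FPKM in both 4 h groups. After RANKL 72 h it was 16.0, 19.7 and 23.4 FPKM, and after LPS 72 h it was 5.53, 5.55 and 6.80 FPKM, with no overlap of either group with any other. The rise with RANKL was 1.77-fold (log2 0.83 ± 0.14, adjusted p = 0.000768) and the fall with LPS was 1.83-fold (log2 -0.87 ± 0.14, adjusted p = 0.000392, and -0.97 without replicate 3). The 72 h groups differed 3.24-fold (log2 1.70 ± 0.14, adjusted p = 9.58e-07), and the direction of all 3 differences held after centring. At 4 h *Sms* was not called, and relative to the median gene it stood 0.45 (log2) above control after LPS 4 h.

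*Sat1* (X chromosome, 155213132 to 155216449, minus strand), which acetylates spermidine and spermine for export or breakdown, was the most abundant of the 3 polyamine members by mean FPKM in every group, and was lower at 72 h. It was 268, 228 and 189 FPKM in control, 268, 239 and 177 after RANKL 4 h and 212, 142 and 165 after LPS 4 h. At 72 h it was 202, 147 and 137 FPKM with RANKL and 146, 139 and 138 FPKM with LPS. The LPS 72 h samples were all below control, 1.61-fold lower (log2 -0.68 ± 0.20, adjusted p = 0.0156), and that call was lost without control replicate 1 (log2 -0.56, adjusted p = 0.0675) but held without LPS 72 h replicate 3 (-0.67, adjusted p = 0.0295). Against LPS 4 h the log2 difference of -0.27 (adjusted p = 0.232) was not called, and after centring it was (-0.92, adjusted p = 0.00291). The RANKL 72 h difference (log2 -0.50, adjusted p = 0.0655) was not called. It was called after centring (log2 -0.72) and without control replicate 3 (-0.63) or RANKL 72 h replicate 1 (-0.68). The same held against RANKL 4 h, where the log2 difference of -0.49 (adjusted p = 0.0725) was called after centring (-0.71) and without RANKL 4 h replicate 3 or RANKL 72 h replicate 1 (both -0.67).

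The balance of *Odc1* and *Sms* separated the groups. The ratio of *Odc1* to *Sms* in FPKM was 26.7, 25.6 and 14.8 in LPS 72 h, 11.0, 10.5 and 11.2 in LPS 4 h, 6.10 to 8.12 in RANKL 4 h, 3.58 to 6.01 in control and 2.07 to 2.98 in RANKL 72 h. The groups did not overlap, but RANKL 4 h and control were apart only by 6.10 against 6.01. Neither gene was called after RANKL 4 h. Other ratios of members were formed too, and that of *Ass1* to *Asl* overlapped between groups.

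**Figure D3:**
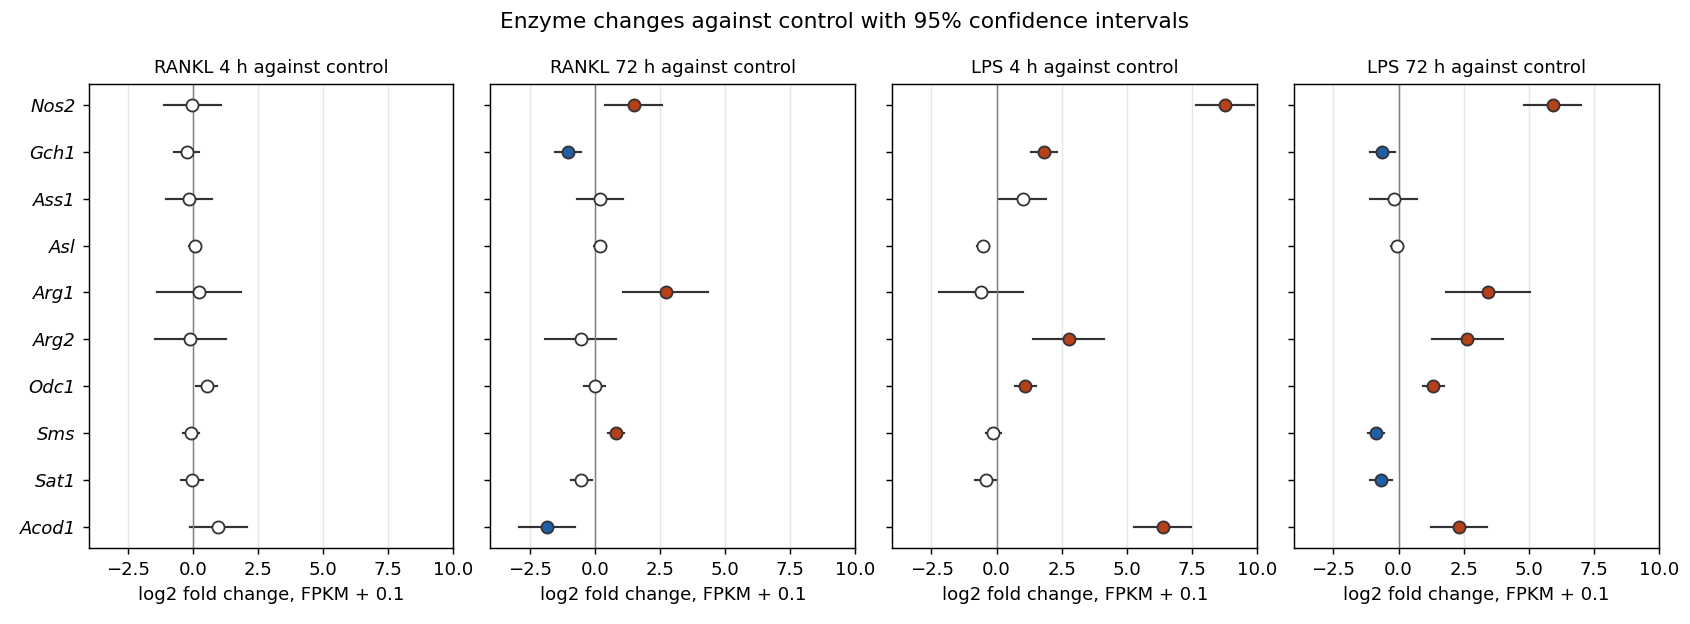
Log2 fold change of FPKM + 0.1 against control for the 10 enzymes in the 4 stimulated groups; points are estimates from the fit over 3 samples per group, bars are 95% confidence intervals, and filled points were called higher (red) or lower (blue). No point is filled after RANKL 4 h, and *Nos2* after LPS 4 h lies farthest from 0 at 8.77.

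Of 14 other polyamine genes tested, 8 were lower and 0 higher after LPS 4 h, 3 were higher and 2 lower after RANKL 72 h, and 1 was higher and 2 lower after LPS 72 h. The shares called, 57.1%, 35.7% and 21.4%, lay near the 48.1%, 24.2% and 27.4% of all genes, and the median log2 change after LPS 4 h was -0.68 against -0.52. After centring on the median gene, LPS 4 h left *Paox* and *Atp13a2* as called lower (log2 -1.23 and -1.01) and *Smox* as called higher (1.02). *Srm*, which makes spermidine, was 34.5, 37.4 and 30.5 FPKM in control, 24, 21.8 and 15.7 after LPS 4 h and 19.8, 21.3 and 17.9 after LPS 72 h, so it was called lower at both LPS times (log2 -0.75 and -0.79) while *Odc1* rose. Only the 72 h call held after centring (log2 -0.87), and without LPS 72 h replicate 3 its value was -0.72. *Amd1*, which makes the aminopropyl donor, fell after LPS 4 h (log2 -1.15, adjusted p = 1.33e-05), a call absent after centring, and its near-identical copy *Amd2* makes its reads uncertain. The oxidase *Paox* fell in the 3 comparisons with control in which members were called (log2 -1.02 with RANKL 72 h, -1.80 with LPS 4 h, -1.13 with LPS 72 h). *Smox*, the spermine oxidase, was 39.4, 25.3 and 23.2 FPKM in control and 64.1, 24.9 and 37.4 after LPS 4 h, and was not called. The lysosomal polyamine exporter *Atp13a2* fell from 83.7, 99.3 and 80.2 to 24.9, 40.1 and 25.2 FPKM after LPS 4 h (log2 -1.57, adjusted p = 4.98e-06).

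Regulators of *Odc1* protein moved at 72 h. Antizymes bind *Odc1* and send it for breakdown, and antizyme inhibitors release it. *Oaz2* rose from 10.8, 7.71 and 9.87 FPKM in control to 21.9, 18.4 and 20.2 after RANKL 72 h (log2 1.09, adjusted p = 0.000610) and 17.0, 14.4 and 21.4 after LPS 72 h (log2 0.88, adjusted p = 0.00188). *Oaz1* was far more abundant, at 166 to 277 FPKM in all samples, and was not called. *Azin1* fell after RANKL 72 h from 29.9, 36.3 and 50.6 to 21.6, 25.5 and 26.4 FPKM (log2 -0.64, adjusted p = 0.0346). Polyamines also feed the hypusine mark of the translation factor *Eif5a*. Of the 4 genes of that list, 0 were called after RANKL 72 h, 2 were lower after LPS 4 h (*Eif5a2* and the hydroxylase *Dohh*, both lost after centring) and 1 lower after LPS 72 h (*Eif5a*, from 308, 313 and 298 to 192, 192 and 209 FPKM). Of all genes, 24.2%, 48.1% and 27.4% were called in these comparisons, in that order.

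*Acod1* (chromosome 14, 103046977 to 103056573, plus strand) reached the highest level of any member. It was 67.9, 17.6 and 12 FPKM in control and 1856, 2080 and 2178 FPKM after LPS 4 h, where its mean ranked 25 of 20089 genes. After LPS 72 h it was 93.2, 173 and 112 FPKM, above every control sample. The rise was 83.3-fold at 4 h (log2 6.38 ± 0.51, adjusted p = 3.35e-07) and 4.99-fold at 72 h (log2 2.32 ± 0.51, adjusted p = 0.00321), and the fall between them was 16.7-fold (adjusted p = 1.1e-05). Without control replicate 1 the log2 rises were 7.12 and 3.06, and without LPS 72 h replicate 3 the second was 2.38.

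With RANKL *Acod1* was called against control only at 72 h, where it was lower. At 4 h it was 85.9, 44.5 and 28.9 FPKM, higher than the control sample of the same number in 3 of 3, but not called (log2 0.98, interval -0.11 to 2.07). At 72 h it was 6.10, 7.82 and 6.45 FPKM, below every other sample, 3.56-fold lower than control (log2 -1.83 ± 0.51, adjusted p = 0.0149) and 7.02-fold lower than RANKL 4 h (adjusted p = 0.00129). Without control replicate 1 the fall against control was 1.09 on the log2 scale (adjusted p = 0.0494), and with the fit restricted to these groups the adjusted p was 0.0523. RANKL samples were 42.3-fold below LPS at 4 h (adjusted p = 1.33e-06) and 17.8-fold below at 72 h (adjusted p = 2.19e-05). As for *Arg1*, replicate 1 was the highest and replicate 3 the lowest sample in both control and RANKL 4 h. The ratio of *Acod1* to *Nos2* in FPKM was 32.8 to 42.9 in control and 64.3 to 83.9 in RANKL 4 h, but 5.30 to 7.67 in LPS 4 h, 1.75 to 3.51 in LPS 72 h and 2.28 to 5.08 in RANKL 72 h.

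Some genes around itaconate rose with RANKL where *Acod1* fell. Of 8 tested, 3 were higher and 0 lower after RANKL 72 h, 0 higher and 3 lower after LPS 4 h, and 0 higher and 1 lower after LPS 72 h. The shares called were 37.5%, 37.5% and 12.5%, against 24.2%, 48.1% and 27.4% of all genes. *Clybl*, the lyase of the pathway that breaks itaconate down, was 2.04, 1.93 and 1.72 FPKM in control and 9.01, 8.38 and 11.4 after RANKL 72 h (4.82-fold, log2 2.27, adjusted p = 2.45e-06, and 2.05 after centring). *Suclg2*, a subunit of succinyl-CoA ligase, rose after RANKL 72 h (log2 0.80, a call lost after centring) and fell after LPS 72 h (log2 -0.62, a call lost without LPS 72 h replicate 3 at -0.60). *Aco1*, the cytosolic aconitase, fell after LPS 4 h (log2 -0.98), a call absent after centring.

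Over the 7 lists of other pathway genes together, 54 of 64 genes passed the filter. After RANKL 4 h 0 were called by limma and by voom, and 1 on an unadjusted p. With RANKL for 72 h, 15 were higher and 6 lower, or 7 and 6 after centring on the median gene. After LPS 4 h, 1 was higher and 26 lower, or 5 and 5 after centring. After LPS 72 h, 6 were higher and 12 lower, or 6 and 14 after centring, and without replicate 3 of LPS 72 h the number called was 20 in place of 18. The shares called were 38.9%, 50% and 33.3%, against 24.2%, 48.1% and 27.4% of all genes, with medians of 0.34, -0.59 and -0.07 against 0.16, -0.52 and 0.08, so the share after LPS 4 h was near that of all genes.

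**Figure D4:**
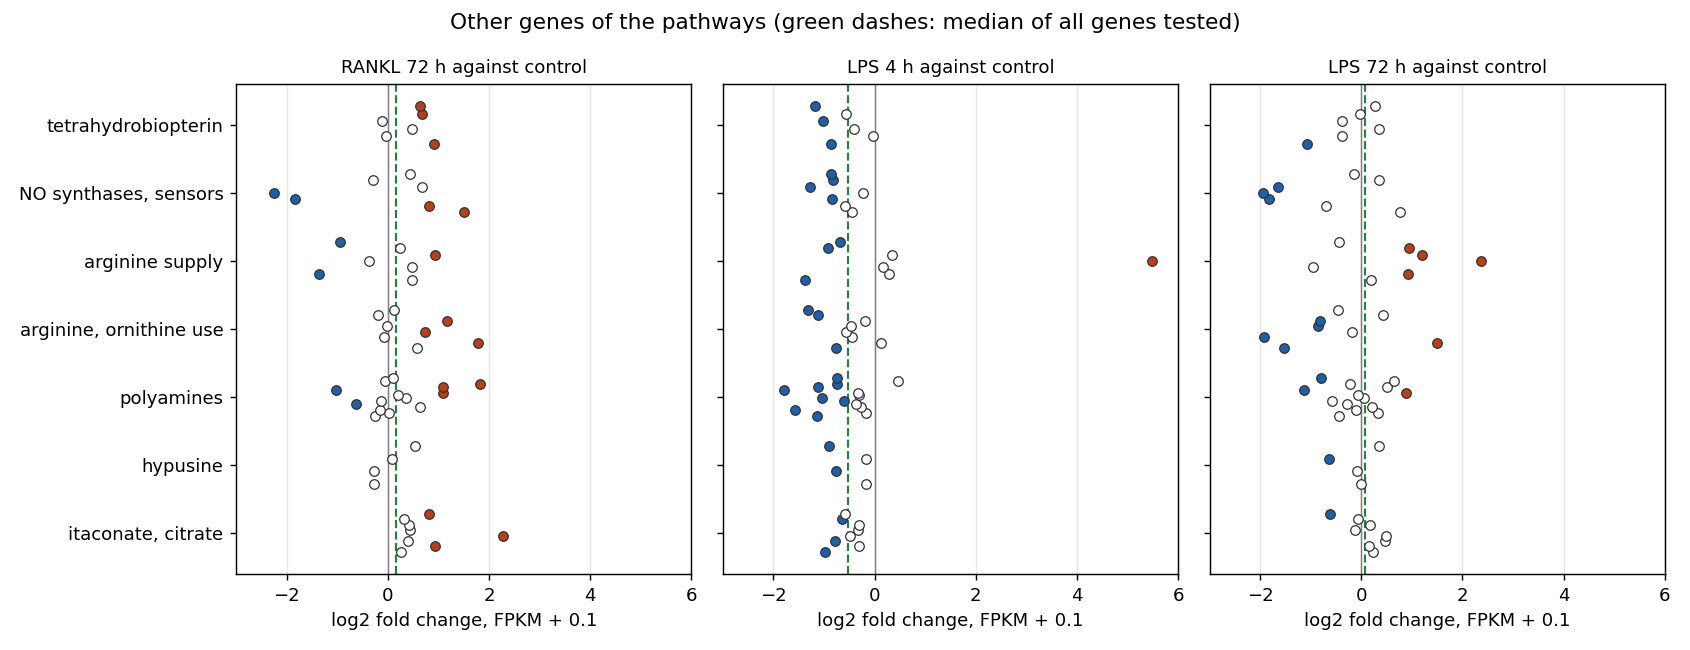
Log2 fold change of FPKM + 0.1 against control for the 54 tested genes of the 7 other pathway lists in 3 groups; each point is a gene, filled where called higher (red) or lower (blue), and the green dashed line is the median of all genes tested (0.16, -0.52 and 0.08). *Slc7a2* stands alone at 5.49 after LPS 4 h.

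Direct comparison of the stimuli and of the times gave the following counts. Between RANKL 4 h and LPS 4 h, 6 of 10 members were called, 1 higher and 5 lower in RANKL (0 and 6 after centring), against 50% of all genes (41.0% higher, 8.98% lower). Between RANKL 72 h and LPS 72 h, 5 of 10 were called, 1 higher (*Sms*) and 4 lower (*Nos2*, *Arg2*, *Odc1* and *Acod1*), against 36.1% of all genes (23.3% higher, 12.8% lower). Between RANKL 72 h and RANKL 4 h, 5 of 10 were called, 3 higher (*Nos2*, *Arg1*, *Sms*) and 2 lower (*Gch1*, *Acod1*), or 2 and 4 after centring, against 23.3% of all genes (16.4% higher, 6.83% lower). Between LPS 72 h and LPS 4 h, 6 of 10 were called, 1 higher (*Arg1*) and 5 lower (*Nos2*, *Ass1*, *Gch1*, *Sms*, *Acod1*), or 1 and 6 after centring, against 58.1% of all genes (44.2% higher, 13.9% lower). Without LPS 72 h replicate 3 the numbers of members called stayed at 8 against control, 5 against RANKL 72 h and 6 against LPS 4 h. The comparisons with control share the control samples, and those between stimuli or times share samples with them.

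Genes of alternative activation, the state for which *Arg1* is a marker, mostly did not rise with it at 72 h. Of 12 tested, 4 were higher and 1 lower after LPS 4 h, 1 was higher and 2 lower after RANKL 72 h, and 2 were higher and 6 lower after LPS 72 h, with medians at 72 h of -0.49 and -1.29 on the log2 scale. The shares called were 41.7%, 25% and 66.7%, against 48.1%, 24.2% and 27.4% of all genes. The chitinase-like *Chil3* was 690, 348 and 314 FPKM in control, 179, 142 and 25.2 after RANKL 72 h (log2 -2.29, adjusted p = 0.023) and 6.68, 9.34 and 32.8 after LPS 72 h (log2 -5.04, adjusted p = 0.000126, and -5.72 without replicate 3). The lectin gene *Mgl2* fell after LPS 72 h (log2 -4.19, adjusted p = 0.000202) and was not called after RANKL 72 h. *Pparg*, a lipid-sensing nuclear receptor, fell in all 3 comparisons (log2 -1.60, -2.18 and -2.67 with RANKL 72 h, LPS 4 h and LPS 72 h). The chemokine *Ccl22* rose after LPS 4 h (log2 2.78, adjusted p = 0.0211) and was not called at 72 h.

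Across the 15 samples, each member was set against every gene averaging 1 FPKM or more by Pearson correlation of log2(FPKM + 0.1), as a description over samples that share groups. The closest genes were *Socs3* (r = 0.986) and *Pde4b* (0.981) for *Nos2*, *Rhbdf2* (0.979) and *Clec4e* (0.975) for *Acod1*, and *Oasl1* (0.987) and *A530032D15Rik* (0.985) for *Gch1*. For the arginases they were *9530068E07Rik* (0.943) and *Gatsl3* (0.930) for *Arg1*, and *Fpr3* (0.942) and *Fpr2* (0.939) for *Arg2*. *Ass1* had the weakest partners, *2700060E02Rik* (0.835) and *Stk39* (0.819), and *Asl* was closest to *Armc10* (0.977) and *Tial1* (0.975). *Odc1* was closest to *Rbpms* (0.925) and *Pdpn* (0.916), *Sat1* to *Treml1* (0.928) and *Pdgfc* (0.877), and *Sms* to the ribosomal protein genes *Rpl22l1* (0.967) and *Rpl23a* (0.964). Among the members themselves the highest values were 0.873 for *Gch1* with *Acod1*, 0.854 for *Nos2* with *Acod1* and 0.835 for *Nos2* with *Arg2*, and the lowest was -0.943 for *Asl* with *Acod1*. *Nos2* and *Arg1* were near 0 (0.029). These correlations were taken without centring on the median gene, which fell after LPS 4 h. After centring the fall of *Asl* in that group was absent (log2 0.04).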

How the data were processed

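mRNA was sequenced from 15 BMDM samples in 5 groups of 3, grouped by the labels. The authors deposited 1 table of FPKM per gene, made with StringTie per the submitters' processing notes, which also name GRCm38.p4 and mm10. The aligner, versions and strand setting are not given in the sources used here. The methods give 4 days in M-CSF before stimulation and the labels 3. The table held 20089 complete gene entries, after 1 incomplete last entry was left out, and genes after that point in its alphabetical order were not analysed here.

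FPKM values came as whole multiples of a step per gene, which gave back fragment numbers for each of the 14485 genes detected in 3 or more samples (tolerance 0.003 fragments). Totals were 18306184 to 20330207 per sample, and depth differed 1.098-fold at most. The main test was limma 3.58.1 (R 4.3.3, eBayes with trend) on log2(FPKM + 0.1), in 1 fit of all 15 samples with 8 contrasts. Genes averaging 0.1 FPKM or more entered, fold changes are on that log2 scale and understate changes of low genes, and adjusted p is Benjamini-Hochberg over 11743 genes. The study's methods use a count test with an unadjusted p, so the fold thresholds were kept and the unadjusted p became an alternative. The other alternatives were pseudocounts of 1 and 0.01 FPKM, no filter or a minimum mean of 1 FPKM, rescaling to equal sums, centring on the median gene, fitting only the groups compared, eBayes without trend, voom on recovered fragments, a replicate block, and leaving out each sample. Scripts used Python 3.11.15, numpy 2.4.6, pandas 2.3.3, scipy 1.17.1 and matplotlib 3.10.9, and the test was checked on simulated data. That simulation drew independent noise for each sample. It held no shared replicate effect and no outlying sample, so it cannot show how the test behaves with either.

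Same-numbered samples deviated together from their group means, with every pair's r above 0.1, for RANKL 4 h (0.707 to 0.842), RANKL 72 h (0.136 to 0.318) and LPS 4 h (0.44 to 0.624) against control, for RANKL 4 h against LPS 4 h and for RANKL 72 h against RANKL 4 h, so these looked paired in the data. The main test did not use this pairing. It entered only through the replicate block among the alternatives, which was fitted over all 15 samples, with those of LPS 72 h, where it was not seen. The members and lists were chosen with earlier results of these data known. All members are named. From each list the up to 4 genes with the largest called change against control and a mean of 1 FPKM or more are named, plus *Slc7a2*, *Slc7a1*, *Srm*, *Amd1*, *Azin1*, *Oaz1*, *Smox*, *Gchfr*, *Pts* and *Spr* whatever their values, and the 2 genes closest to each member by correlation. *Gucy1a3*, *Gucy1b3*, *Nos1*, *Nos3* and *Cps1* were added after values were seen. Some results of the pathway lists are not reported here by gene.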

Additional observations from a re-analysis of the deposited data

Results flagged for a closer look

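For 11 responses the effect at 4 h and at 72 h of the same stimulus differed, by the contrast between the times in the fit of all genes. With LPS, *Arg1* was 4.01 higher on the log2 scale at 72 h than at 4 h, and the value was -4.06 for *Acod1*, -2.86 for *Nos2*, -2.45 for *Gch1*, -1.20 for *Ass1* and -0.75 for *Sms*. With RANKL, the log2 difference of 72 h from 4 h was 2.48 for *Arg1*, 1.52 for *Nos2*, 0.89 for *Sms*, -0.80 for *Gch1* and -2.81 for *Acod1*. *Arg1* was higher and *Gch1* and *Acod1* lower at the later time under both stimuli, while *Nos2* and *Sms* had opposite signs. In LPS the *Ass1* difference, and in RANKL those of *Nos2*, *Arg1* and *Gch1*, were lost when single samples were left out. No group was kept in M-CSF alone for 72 h, so the time in culture and the stimulus cannot be told apart in these differences.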

How the results depend on the processing

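Of 80 member results (10 genes in 8 comparisons), 40 were called. Of these, 29 kept their call under each of the 17 alternatives, 11 lost it under at least 1, and 0 changed sign. Of the 40 not called, 6 were called under at least 1 alternative and 21 changed sign under at least 1. Counts of members called moved by over 1.5 times in RANKL 72 h against control with only the groups compared (3 in place of 5) and, leaving out samples, in RANKL 72 h against RANKL 4 h (3 to 5, lowest without RANKL 72 h replicate 1 or 3). Counts of other pathway genes moved with the unadjusted p in RANKL 4 h (1 in place of 0) and after centring in RANKL 72 h (13), LPS 4 h (10) and RANKL 4 h against LPS 4 h (8). Leaving out samples gave, against control, 0 members called in RANKL 4 h, 4 to 5 in RANKL 72 h, 5 to 6 in LPS 4 h and 6 to 8 in LPS 72 h. The replicate block changed the call of no member: the counts stayed at 0, 5, 5 and 8 against control, and of other pathway genes 22 after RANKL 72 h, 27 after LPS 4 h and 19 after LPS 72 h were called.

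Signs turned after centring for *Ass1* (-0.0099) and *Asl* (-0.020) in RANKL 72 h, for *Asl* (0.038), *Sat1* (0.16) and *Sms* (0.45) in LPS 4 h, for *Sat1* (-0.17) and *Sms* (-0.51) in RANKL 4 h against LPS 4 h, for *Asl* (-0.091) in RANKL 72 h against RANKL 4 h, and for *Asl* (-0.18) and *Odc1* (-0.41) in LPS 72 h against LPS 4 h. For *Odc1* in RANKL 72 h the sign turned with equal sums (0.11) and voom (0.010). Leaving out samples turned signs in these log2 ranges. In RANKL 4 h they were -0.39 to 0.54 for *Nos2*, -0.45 to 0.99 for *Arg1*, -0.96 to 0.46 for *Arg2*, -0.49 to 0.15 for *Ass1* and -0.14 to 0.16 for *Sat1*. In RANKL 72 h they were -1.41 to 0.013 for *Arg2* and -0.18 to 0.19 for *Odc1*, in LPS 4 h -1.28 to 0.11 for *Arg1*, and in LPS 72 h -0.64 to 0.30 for *Ass1*. They were -0.0057 to 0.11 for *Sms* between RANKL 4 h and LPS 4 h, -0.091 to 0.85 for *Ass1* between RANKL 72 h and LPS 72 h, and -0.34 to 0.22 for *Arg2* between LPS 72 h and LPS 4 h. The cause of these changes was not tested. Of the 2 genes closest to each member, rank correlation kept both for *Arg1* and *Acod1* and neither for *Arg2*, *Ass1*, *Gch1* and *Odc1*. Low levels limit *Arg2* and *Nos2* in control, which rested on as few as 21 and 33 fragments, and counting intervals would not cover the spread between cultures.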
